A study of Mus musculus with 8 samples.

Results

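The genes described here are 8 genes that act when meiotic double-strand breaks are designated and resolved as crossovers: Msh4, Msh5, Hfm1, Rnf212, Ccnb1ip1 (which encodes HEI10), Cntd1, Mlh3 and Mus81. They were chosen by symbol, as known crossover genes, from the 54532 genes of a table of RNA levels in mouse testis, and all 8 were found in it. Each of the 8 libraries was made from the whole testes of 1 mouse, 4 in a control group, Sync-Spdya fl/fl, and 4 in a deletion group, Sync-Spdya cKO. The controls had the genotype Spdya fl/fl and carried no Cre, and the cKO mice had the genotype Spdya fl/fl;Ddx4-CreERT2, in which exon 2 of Spdya is removed in germ cells after tamoxifen. Spdya encodes Speedy A, an activator of the kinase CDK2. The Cre is driven by Ddx4, a germ cell gene, so the deletion is directed at germ cells and not at the somatic cells of the testis. Mice of both groups were treated as pups with an inhibitor of retinoic acid synthesis and then with retinoic acid, so that their germ cells entered meiosis together. Mice of both groups received tamoxifen, given in the labels as RA7.5 and RA8.5 (days after retinoic acid), and testes were collected at RA11.5, when spermatocytes were described as mid-late pachytene. The libraries are called fl/fl 1 to 4 and cKO 1 to 4 below. In whole testes, fewer cells of a type and less RNA per cell cannot be told apart.

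A crossover is the exchange between homologous chromosomes that lets them separate at the first meiotic division. Many breaks are made, and few are designated as crossovers. MSH4 and MSH5 form a heterodimer, MutSγ, that holds recombination intermediates, and the helicase HFM1 acts beside it. RNF212, a SUMO ligase-like protein, stabilizes MutSγ at a subset of sites, HEI10, a ubiquitin ligase-like protein, antagonizes RNF212, and CNTD1, a cyclin-like protein, is needed for the sites to narrow to those that become crossovers. MLH3, as part of the endonuclease MutLγ, then cuts at most designated sites during pachynema, and MUS81 with its partner EME1 makes a minority of crossovers by another route. The RNA data ask whether transcripts of this machinery differed once Speedy A was removed.

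None of the 8 genes was called differentially expressed. Levels are given as FPKM, which counts the fragments on a gene and divides them by its length in kilobases and by the size of the library. Differences were tested with limma on log2(FPKM + 0.1) in 12141 protein-coding genes, those whose mean was above 1 FPKM in both groups, a filter that all 8 passed. A gene was called where its p, adjusted by Benjamini-Hochberg, was below 0.05 and its log2 fold change above 1 in either direction, which 0 of the 8 genes and 0.0165% of all genes tested reached. At an unadjusted p below 0.05 the count was 1 of 8, Msh5, against 10.9% of all genes. The log2 fold change was below 0 for 7 of the 8, against 48.0% of all genes. Under other settings the count was 8 with array weights (46.1% of all genes), 6 after rescaling to TPM (32.6%) and 2 after each library was centred on its pachytene markers (7.19%). The median of the 8 log2 fold changes was -0.15 and that of all genes was 0.01. The groups overlapped in all 8 genes. Over all genes tested 2.59% were lower in cKO without overlap (higher ones were not counted), so 0 of 8 does not set these genes apart.

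**Figure D1:**
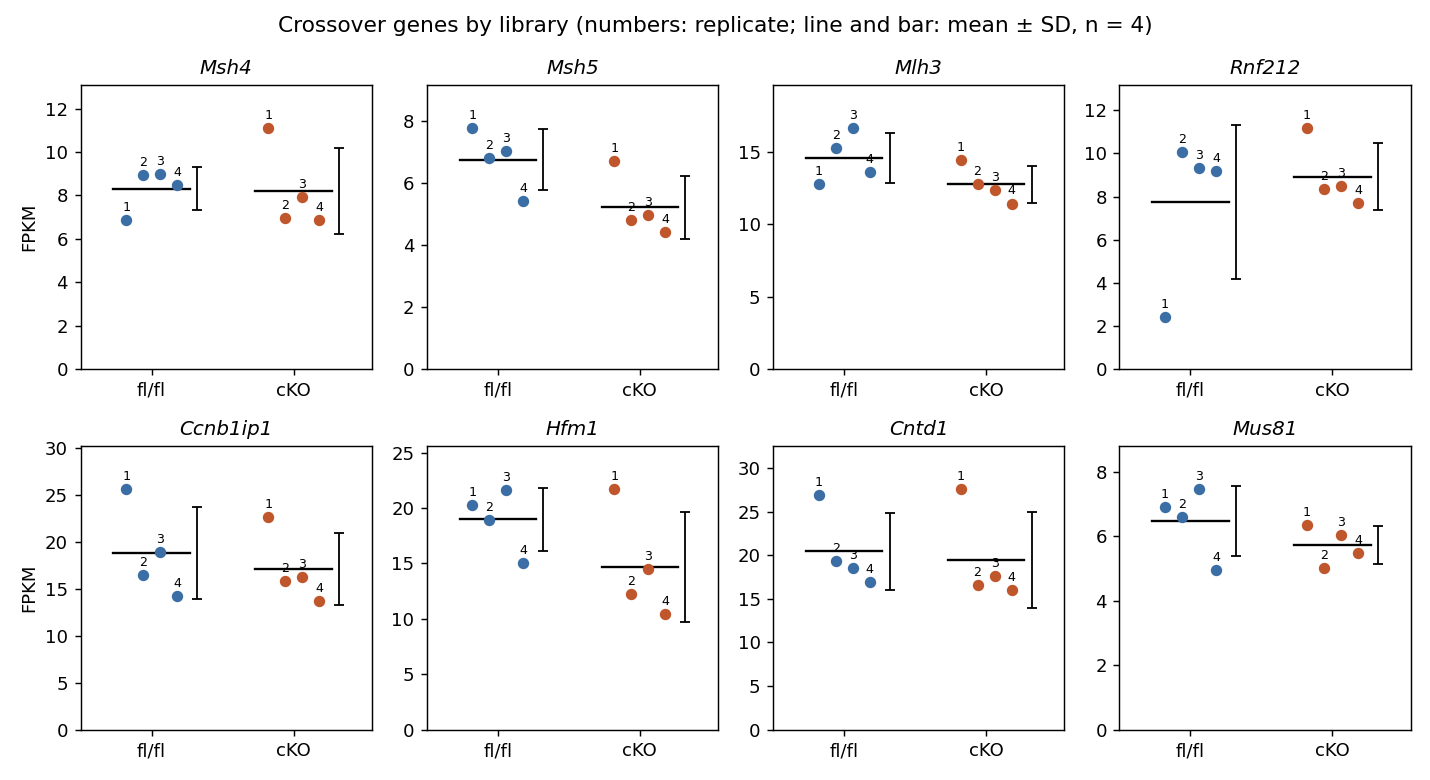
Level of each of the 8 crossover genes in FPKM (vertical axis, from 0) in the Sync-Spdya fl/fl (blue) and Sync-Spdya cKO (orange) libraries. Each point is 1 mouse with its replicate number, the line is the group mean and the bar is the SD (n = 4). The groups overlap in every panel, cKO 1 is the highest cKO library in all 8, and Rnf212 in fl/fl 1 lies apart at 2.41 FPKM.

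Counting error was small for these genes, except for Rnf212 in fl/fl 1. The recovered fragments per library ranged from 13978342 to 19583091, and the 8 genes had between 52 and 2815 fragments in a library. Counting error alone gives a coefficient of variation of 13.9% for Rnf212 in fl/fl 1, where only 52 fragments were counted, and of 2.81% to 5.91% at the lowest count of each of the other 7 genes. Between the mice of a group these 7 genes varied by 9.91% to 33.7%, so the spread between mice was larger than counting error. The 95% interval of the log2 fold change stayed between -0.88 and 0.35 for the 7 genes, inside the threshold of 1 in either direction. For Rnf212 it ran from -0.50 to 1.26, which leaves a rise past the threshold within the interval.

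Among the genes that stabilize recombination intermediates, Msh5 and Hfm1 had the most negative log2 fold changes of the 8. Msh5 (ENSMUSG00000007035, chr17:35028605-35046745 of GRCm38, minus strand) had 7.76, 6.81, 7.02 and 5.40 FPKM in fl/fl 1 to 4 and 6.69, 4.81, 4.95 and 4.40 FPKM in cKO 1 to 4. Of the cKO libraries 3 lay below the lowest control, and cKO 1 lay among the controls. The means were 6.75 ± 0.99 and 5.21 ± 1.01 FPKM (SD, n = 4 each). The log2 fold change was -0.37 (standard error 0.16, 95% interval -0.72 to -0.02), with an unadjusted p of 0.039 and an adjusted p of 0.442 in limma. The exact permutation test of the mean FPKM gave p = 0.0571, two-sided, where the smallest p that 4 against 4 allows is 0.0286.

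Hfm1 (ENSMUSG00000043410, chr5:106840192-106926321, minus strand) varied more between mice. Its levels were 20.2, 18.9, 21.7 and 15.0 FPKM in the controls and 21.7, 12.2, 14.5 and 10.4 FPKM in the cKO libraries. Again 3 cKO libraries were below the lowest control, while cKO 1 was marginally above the highest. Its log2 fold change was -0.41 ± 0.21 (SE; adjusted p = 0.541 in limma), from a mean of 19.0 ± 2.86 to 14.7 ± 4.96 FPKM (SD, n = 4 each), and the exact permutation p was 0.2. Without cKO 1 it was -0.61 for Hfm1 and -0.50 for Msh5, with limma adjusted p of 0.212 and 0.237.

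Msh4 (ENSMUSG00000005493, chr3:153857149-153906138, minus strand), the partner of Msh5, had a log2 fold change near 0. It had 6.85, 8.94, 8.98 and 8.49 FPKM in the controls and 11.1, 6.95, 7.92 and 6.88 FPKM in the cKO libraries. The highest library was cKO 1, and the other 3 cKO libraries lay within the control range. The means were 8.31 ± 1.00 and 8.21 ± 1.98 FPKM (SD, n = 4 each). This gave a log2 fold change of -0.04 (standard error 0.16, 95% interval -0.40 to 0.33, limma adjusted p = 0.954), and its sign was not stable: it was 0.04 after rescaling to TPM.

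Promoter sequence is shown for these 3 genes because 2 of them share a motif that the partner lacks in this window. STRA8, with MEIOSIN, binds promoters of meiotic genes at entry into meiosis, and a motif described for it is CNCCTCAG. RefSeq promoters on GRCm38, 300 bases from 250 before to 50 after the annotated start, were searched on both strands for all 8 genes, after their values had been seen. The motif was in the windows of Hfm1 and Msh5, 2 of the 8, and in 7.94% of 32851 promoter windows. The stretches below run 5′ to 3′ on the gene strand from 120 bases before to 10 after the start, with the motif in capitals. They lie at chr5:106925881-106926010 for Hfm1, at chr17:35046613-35046742 for Msh5 and at chr3:153904882-153905011 for Msh4, all on the minus strand. For each gene the window with the lowest coordinate was used, the most internal on the minus strand if there were more. The RefSeq starts of all 3 lie inside the gene spans given above, that of Msh4 the farthest. The highest coordinate is 153905011 in the Msh4 stretch and 153906138 in its gene. For Hfm1 these are 106926010 and 106926321, and for Msh5 35046742 and 35046745. So the absence of the motif from Msh4 holds only for the window searched.
Hfm1: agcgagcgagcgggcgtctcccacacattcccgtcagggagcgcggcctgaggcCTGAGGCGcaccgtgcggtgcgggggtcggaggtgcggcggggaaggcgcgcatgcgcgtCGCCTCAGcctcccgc
Msh5: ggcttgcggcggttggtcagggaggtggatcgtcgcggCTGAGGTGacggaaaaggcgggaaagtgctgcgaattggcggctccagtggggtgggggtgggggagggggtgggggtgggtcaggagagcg
Msh4: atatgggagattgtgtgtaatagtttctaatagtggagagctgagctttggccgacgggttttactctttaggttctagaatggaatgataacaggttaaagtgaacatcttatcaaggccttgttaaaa

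Hfm1 holds the motif on both strands, with first bases 66 and 6 bases before the start, and Msh5 holds it on the other strand with its first base 82 bases before the start. The shown stretch of Msh4 has a GC content of 37.7%, against 76.2% in Hfm1 and 69.2% in Msh5. A further 6 motifs were searched in the same windows. The MYB core AACNG was in all 8 genes and in 80.3% of all windows, the CCAAT box CCAAT in 4 genes (Cntd1, Mlh3, Msh5, Rnf212) and 37.4%, and the CRE core TGACG in Hfm1 and Msh5 and 20.8%. In Msh5 the CRE core overlaps the STRA8 motif by the last 2 bases of the latter. The RFX motif GTTGCC was in Rnf212 and 12.5% of windows, the E-box CACGTG in Cntd1 and Rnf212 and 7.15%, and the E2F motif GCGGGAA in Msh5 and Rnf212 and 4.60%. A match is a description of the letters and was not tested for binding. Stra8 itself was at 5.925, 4.53, 19.8 and 12.9 FPKM in fl/fl 1 to 4 and at 2.03, 3.925, 2.93 and 4.70 FPKM in cKO 1 to 4. Its log2 fold change was -1.46 (limma adjusted p = 0.280), with fl/fl 3 and 4 well above the other controls. The relation of Stra8 to Hfm1 and Msh5 was not tested.

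Among the genes that designate crossovers, Rnf212 was set apart by 1 control library. Rnf212 (ENSMUSG00000055385, chr5:108729290-108774982, minus strand) had 2.41, 10.1, 9.32 and 9.18 FPKM in fl/fl 1 to 4 and 11.2, 8.36, 8.49 and 7.68 FPKM in cKO 1 to 4. The value of fl/fl 1 came from 52 fragments (exact Poisson 95% interval 1.80 to 3.16 FPKM, which covers counting error only), and the lowest of the other 7 libraries was 3.19 times higher. With all libraries Rnf212 had a log2 fold change of 0.38 ± 0.40 (SE; adjusted p = 0.787 in limma, exact permutation p = 0.714), and without fl/fl 1 one of -0.11. So the only positive fold change among the 8 genes rested on that library. In fl/fl 1, Rnf212 deviated by -1.94 on the log2 scale from the mean of the other 3 controls, and 28 of the 12141 genes, or 0.231%, deviated as far downwards. Mitochondrial genes made up 0.464% of the fragments of fl/fl 1 and 2.20% to 3.74% of those of the other libraries, and whether this bears on Rnf212 was not tested.

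Ccnb1ip1 (ENSMUSG00000071470, chr14:50789248-50807732, minus strand), whose product HEI10 works against RNF212, had 25.7, 16.5, 19.0 and 14.3 FPKM in the controls and 22.6, 15.8, 16.2 and 13.7 FPKM in the cKO libraries. Library 1 of each group was the highest and library 4 the lowest, and the groups overlapped almost fully. For Ccnb1ip1 this gave a log2 fold change of -0.13 (standard error 0.20, 95% interval -0.57 to 0.31, limma adjusted p = 0.856), and it was 0.03 without fl/fl 1. Of its exons, 12.4% overlap Rpph1, the RNA of ribonuclease P, on the same strand, and Rpph1 is listed at 0 in all 8 libraries.

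Cntd1 (ENSMUSG00000078653, chr11:101279012-101296317, plus strand) had 26.9, 19.4, 18.5 and 16.98 FPKM in the controls and 27.6, 16.6, 17.6 and 16.0 FPKM in the cKO libraries. Library 1 stood above the other 3 in both groups. The log2 fold change was -0.09 (standard error 0.20, 95% interval -0.53 to 0.35, limma adjusted p = 0.908), and it was 0.05 without fl/fl 1. Its level is uncertain, because 70.2% of its exonic bases overlap exons of Becn1, an autophagy gene on the opposite strand, and the use of strand in counting is not given in the sources used here. If strand was not used, reads of Cntd1 and Becn1 cannot be told apart in the overlap. Becn1 had 23.0, 17.4, 17.01 and 15.5 FPKM in fl/fl 1 to 4 and 17.9, 16.6, 16.4 and 15.7 FPKM in cKO 1 to 4. So Becn1 was highest in library 1 of each group, as Cntd1 was, though in cKO 1 by a smaller margin than Cntd1. Whether shared reads bear on this was not tested.

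Of the genes that resolve intermediates, both nucleases had small negative log2 fold changes that did not pass the test. Mlh3 (ENSMUSG00000021245, chr12:85234520-85270599, minus strand) had 12.8, 15.3, 16.7 and 13.6 FPKM in the controls and 14.5, 12.8, 12.4 and 11.5 FPKM in the cKO libraries. Of the cKO libraries 2 lay below the lowest control and the others within the control range. The means were 14.6 ± 1.74 and 12.8 ± 1.27 FPKM (SD, n = 4 each), with a log2 fold change of -0.19 (standard error 0.12, 95% interval -0.45 to 0.07, limma adjusted p = 0.613). It had the narrowest interval of the 8 genes.

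Mus81 (ENSMUSG00000024906, chr19:5482345-5488402, minus strand), the nuclease of the minor route, had 6.91, 6.60, 7.46 and 4.94 FPKM in the controls and 6.35, 5.02, 6.03 and 5.46 FPKM in the cKO libraries. All 4 cKO libraries lay within the control range, whose lowest library was fl/fl 4. Its log2 fold change was -0.17 ± 0.14 (SE; adjusted p = 0.735 in limma). Without fl/fl 4 it was -0.29 (limma adjusted p = 0.285). Its exons overlap those of Efemp2 on the opposite strand by 4.85%.

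By mean level per length, the 8 genes fell into a higher and a lower set. In the controls the order by mean FPKM was Cntd1 (20.4), Hfm1 (19.0), Ccnb1ip1 (18.9), Mlh3 (14.6), Msh4 (8.31), Rnf212 (7.75), Msh5 (6.75) and Mus81 (6.48). The ranges of neighbours in this order overlapped, except that the lowest Mlh3 library (12.8) lay above the highest Msh4 library (8.98). In the cKO libraries the order was Cntd1 (19.4), Ccnb1ip1 (17.1), Hfm1 (14.7), Mlh3 (12.8), Rnf212 (8.93), Msh4 (8.21), Mus81 (5.72) and Msh5 (5.21). There the ranges of Mlh3 and Rnf212 did not overlap, nor did those of Msh4 and Mus81. By mean the same 4 genes (Cntd1, Hfm1, Ccnb1ip1, Mlh3) made up the higher set in both groups. In cKO the ranges of the sets overlapped. The lowest Hfm1 library (10.4) lay below the highest of Rnf212 (11.2) and of Msh4 (11.1). Among the 12141 genes tested, the controls placed the 8 genes between the 37.3 and the 74.1 percentile, Mus81 lowest and Cntd1 highest. The place of Cntd1 is uncertain, since whether its count holds reads of Becn1 is not known.

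Ratios between partners, taken within a library and so independent of its scaling, are given for 5 pairs, and none passed the test between the groups. The log2 ratio of Msh4 to Msh5, the 2 subunits of MutSγ, was -0.18, 0.39, 0.35 and 0.64 in fl/fl 1 to 4 and 0.72, 0.52, 0.67 and 0.63 in cKO 1 to 4. It was lowest in fl/fl 1, and 3 of 4 controls lay below all cKO libraries. The difference was 0.33 (exact permutation p = 0.0857, 0.514 after Benjamini-Hochberg adjustment over the 6 ratios computed), and 0.18 without fl/fl 1.

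Mus81 and Eme1 were at nearly equal levels per length. Their log2 ratio had a mean of 0.10 ± 0.17 in the controls and -0.08 ± 0.11 in cKO (exact permutation p = 0.2, n = 4 each). The log2 ratio of Rnf212 to Ccnb1ip1, 2 genes of opposing function, ran from -1.02 to -0.63 in fl/fl 2 to 4 and from -1.01 to -0.83 in the cKO libraries, and was -3.36 in fl/fl 1. The difference was 0.51 with all libraries (exact permutation p = 0.886) and -0.13 without fl/fl 1. CNTD1 and PRR19 act with CDK2 at crossover sites, and the ratios of Cntd1 to Cdk2 and to Prr19 each differed by -0.04 between the groups (exact permutation p = 0.571 and p = 0.857, adjusted p = 0.857 and 0.886). In both groups the Cntd1 to Cdk2 ratio was highest in library 1, at -0.08 and 0.00, against -0.59 to -0.49 in the other 6 libraries.

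**Figure D2:**
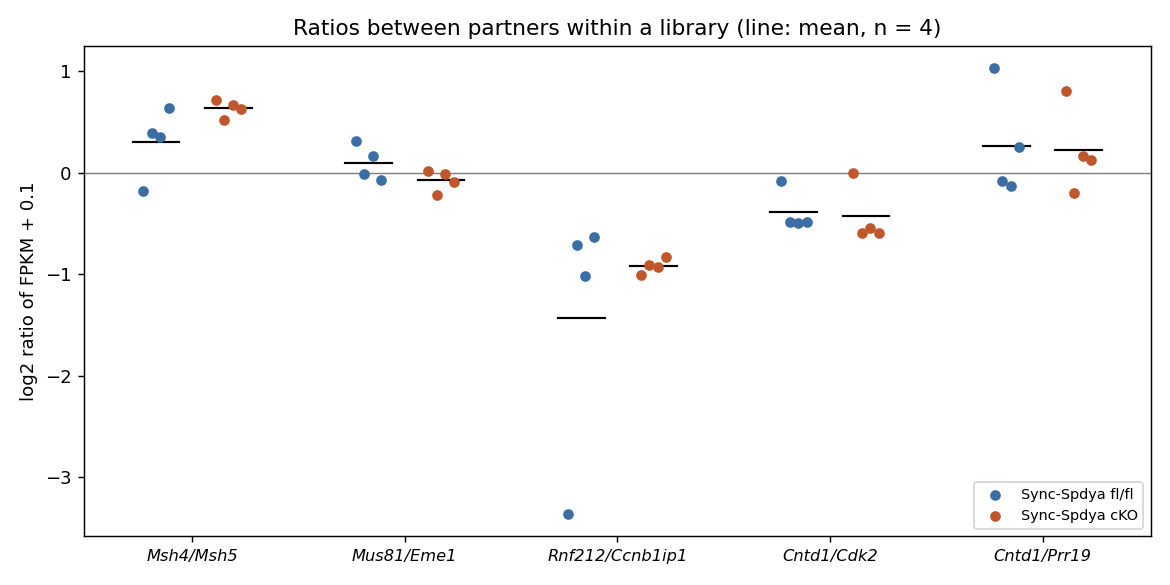
Log2 ratio of FPKM + 0.1 between partner genes within each library (vertical axis) for 5 pairs, in Sync-Spdya fl/fl (blue) and Sync-Spdya cKO (orange). Points are mice and lines are means (n = 4). The groups overlap in every pair, and the lowest point is fl/fl 1 for Rnf212 to Ccnb1ip1 at -3.36.

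The remaining genes of the pathway, taken from lists made by function, were compared in the same fit. Of 27 such genes tested, 0 were called, 3 had an unadjusted p below 0.05 with a lower level in cKO and 0 with a higher one. Over all genes 10.9% had such a p in either direction, and 607 of 12141 had it with a lower level in cKO. For the signs counted by list below, 48.0% of all genes had a log2 fold change below 0. The log2 fold changes of the 27 ran from -0.45 to 0.25 with a median of -0.11, and the smallest adjusted p in limma was 0.286. The groups did not overlap for 2 of the 27, both lower in cKO, against the 2.59% of all genes given above.

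The other pro-crossover genes comprised 9 tested genes, of which 7 had a log2 fold change below 0 and 1 had an unadjusted p below 0.05. That gene was AI481877, which encodes SHOC1, one of the ZMM group of crossover proteins. AI481877 had 5.49 to 7.58 FPKM in the controls and 4.74 to 5.39 FPKM in the cKO libraries, without overlap, with a log2 fold change of -0.41 (limma adjusted p = 0.286). Tex11, an X-linked ZMM gene, had a mean of 35.1 ± 9.98 against 28.2 ± 1.68 FPKM (log2 fold change -0.27, limma adjusted p = 0.645). Rnf212b, a relative of Rnf212, had a log2 fold change of 0.16 and Cdk2 one of -0.05, with adjusted p of 0.762 and 0.889 in limma. Spdya was also positive at 0.15 (limma adjusted p = 0.787), but its value over the whole gene does not check the labels, since only exon 2 was removed.

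The 7 other resolvase genes were split, with 3 log2 fold changes below 0 and a median of 0.01. Slx4, the scaffold that holds structure-specific nucleases, was the one with an unadjusted p below 0.05, at 16.0 ± 1.5 FPKM in the controls and 13.2 ± 1.17 FPKM in cKO (log2 fold change -0.28, limma adjusted p = 0.391). Eme1 had a log2 fold change of 0.01 (standard error 0.11). Gen1, another Holliday junction resolvase, had one of -0.06.

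All 7 anti-crossover and dissolution genes had a log2 fold change below 0, with a median of -0.25. Fancm, a helicase that limits crossovers, ranged from 4.63 to 5.71 FPKM in the controls and from 3.99 to 4.41 FPKM in cKO without overlap (log2 fold change -0.25, limma adjusted p = 0.448). Blm, the helicase that dissolves joint molecules, had a log2 fold change of -0.18 (limma adjusted p = 0.590). Rmi2, a subunit of the BLM complex, had 9.95 FPKM in fl/fl 1, 3.03 to 4.01 FPKM in fl/fl 2 to 4 and 2.33 to 4.18 FPKM in the cKO libraries. Its log2 fold change of -0.45 (standard error 0.35) thus includes 1 control far above the others, which lay inside the cKO range. Of the 4 other mismatch repair genes 3 were below 0, with a median of -0.08. Msh6, a mismatch-binding protein, had a log2 fold change of -0.15 (limma adjusted p = 0.810).

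**Figure D3:**
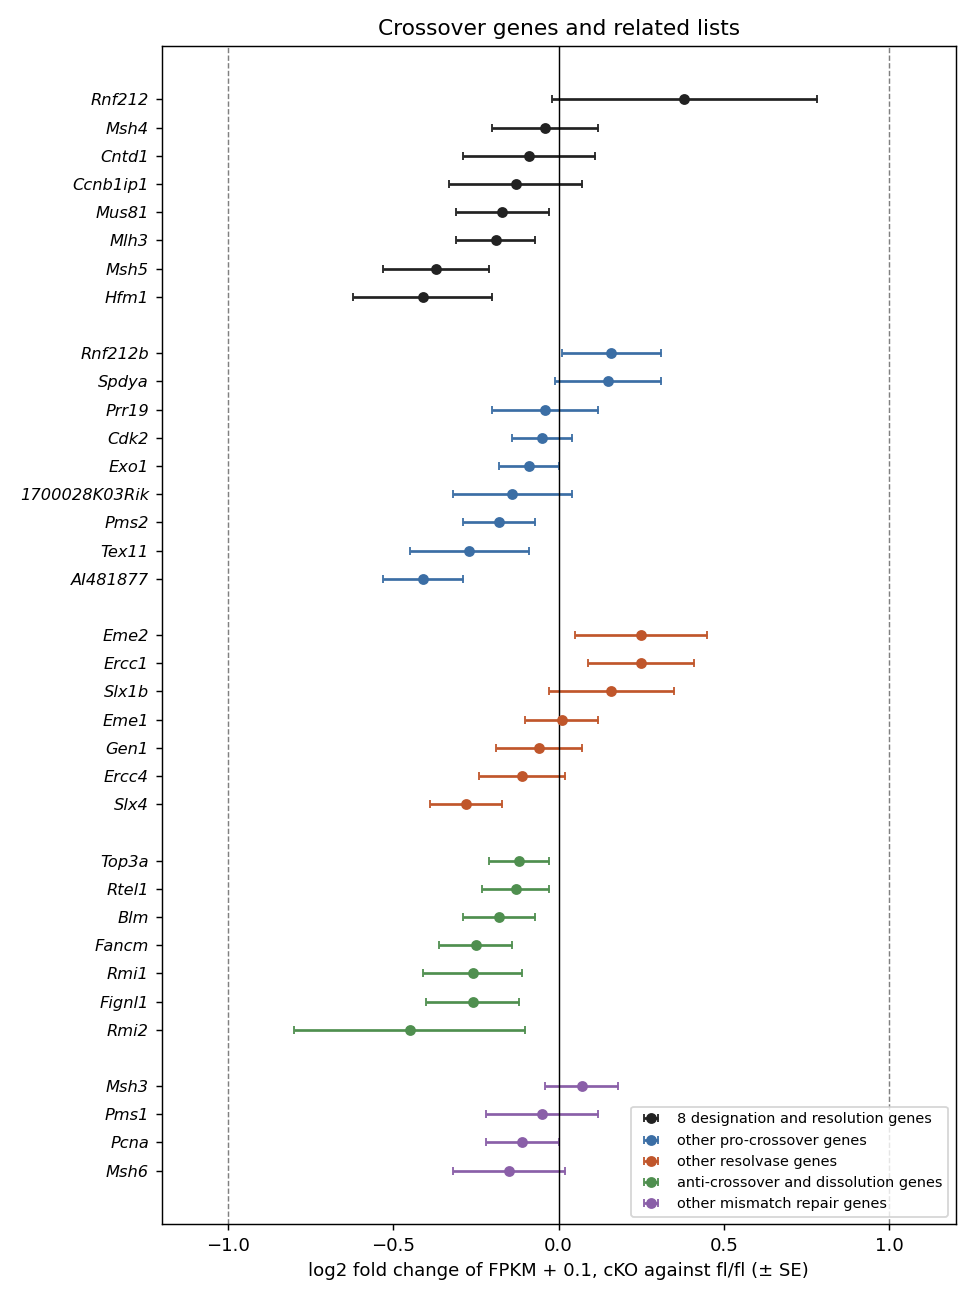
Log2 fold change of FPKM + 0.1, cKO against fl/fl (horizontal axis), with its standard error, for the 8 crossover genes and 27 genes of 4 related lists. Dashed lines mark the threshold of 1 in either direction. All points lie between -0.45 and 0.38, Rnf212 being the highest and Rmi2 the lowest.

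Within the cKO group the 8 genes were high or low in the same mice. In cKO 1 all 8 were at their highest within the cKO group, whereas 40.7% of all tested genes were highest there. In cKO 4, 7 of the 8 were lowest within the group (28.5% of all genes), and in fl/fl 4 it was 5 of the 8 (34.8%). The summed level of the 8 genes was 109.5, 102.6, 108.6 and 87.9 FPKM in fl/fl 1 to 4 and 121.7, 82.5, 88.1 and 76.0 FPKM in cKO 1 to 4. Among the controls the picture was mixed, since fl/fl 1 held the highest value of the group for 3 of the 8 genes and the lowest for 3 others. The highest and the lowest sums both came from the cKO group.

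Markers of the cell types of the testis differed between these libraries too. All 9 tested of 11 measured pachytene markers had a log2 fold change below 0 (48.0% of all genes), with a median of -0.29. The summed level of the 11 ranged from 1577 to 2424 FPKM in the controls and from 1342 to 2053 FPKM in cKO. Within the groups the sum was lowest in fl/fl 4 (1577) and cKO 4 (1342) and, in cKO, highest in cKO 1 (2053). Ldhc, a sperm-type lactate dehydrogenase, had the most negative log2 fold change of the 9, at -0.73 (limma adjusted p = 0.287), and Piwil1, an Argonaute protein of germ cells, had -0.40 (limma adjusted p = 0.442). Centring each library on these markers moved the median log2 fold change of all genes to 0.32 and that of the 8 genes to 0.16. On that scale Msh5 was at -0.06 and Hfm1 at -0.10. Of the 9 leptotene-zygotene markers 7 were below 0 (48.0% of all genes), with sums of 129 to 175 and 116 to 158 FPKM.

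Somatic markers had mostly positive log2 fold changes, of which 0 were called. The sums of 6 macrophage markers were 14.3 to 25.5 FPKM in the controls and 27.4 to 34.6 FPKM in cKO, those of 7 Leydig markers 35.9 to 57.6 and 51.6 to 72.2 FPKM, and those of 6 endothelial and peritubular markers 52.0 to 83.8 and 82.1 to 114 FPKM. All 15 tested genes of these 3 lists had a log2 fold change above 0, and 10 had an unadjusted p below 0.05. Over all genes 48.0% were below 0, and 10.9% had such a p in either direction. The 10 Sertoli markers summed to 1548 to 2507 and 2026 to 2375 FPKM, and the 10 spermatogonia markers to 234 to 377 and 306 to 318 FPKM. Of the 10 spermatid markers only 2 passed the filter, their sums were 6.29 to 13.6 and 7.14 to 8.98 FPKM, and Prm2, Tnp1 and Acrv1 were each at 0 in at least 1 library of each group. Hist1h1t, a histone of mid and late pachytene cells that did not pass the filter, differed in direction from the tested pachytene markers. It was at 0.21 to 0.33 FPKM in the controls and 0.32 to 0.89 FPKM in cKO, all below 1 FPKM. Its log2 fold change was 0.96 (limma adjusted p = 0.418 in the fit over genes with a mean above 0.1 FPKM). Ccna1, the other pachytene marker that did not pass, had the direction of the tested ones. It was at 1.30 to 1.95 FPKM in the controls and 0.83 to 1.265 FPKM in cKO, without overlap. In the same fit its log2 fold change was -0.72 (limma adjusted p = 0.360). The part of cell type markers in the values of the 8 genes was not tested.

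**Figure D4:**
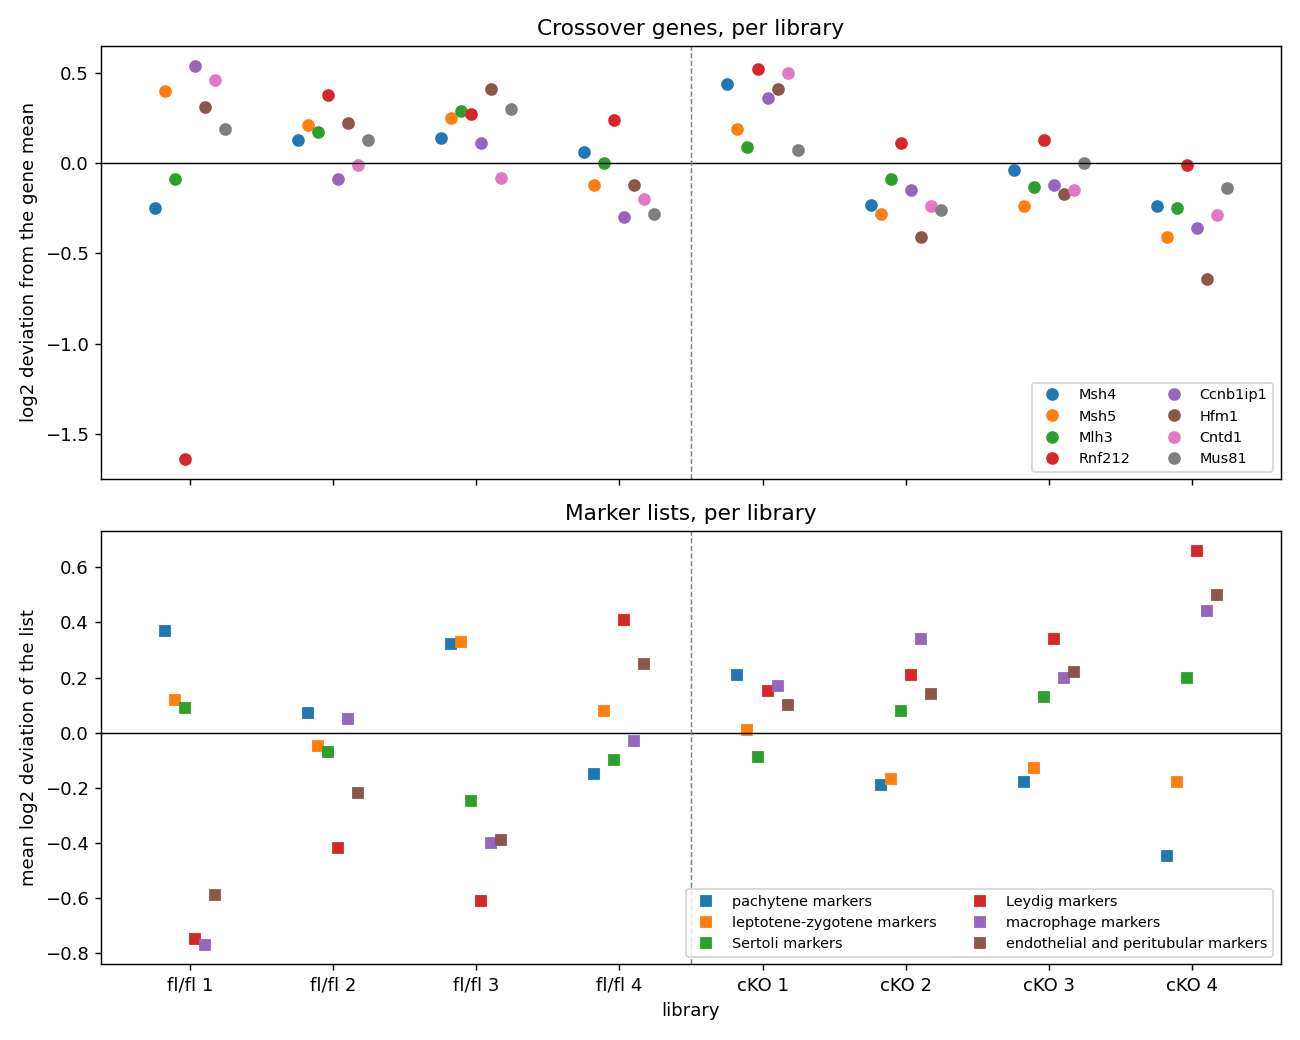
Upper panel, log2 deviation of each of the 8 crossover genes from its own mean over 8 libraries (vertical axis) in each library (horizontal axis). Lower panel, mean log2 deviation of the tested genes of 6 marker lists. The crossover genes and the pachytene markers are above 0 together in cKO 1 and, apart from Rnf212, mostly below 0 in cKO 2 to 4, and Rnf212 in fl/fl 1 lies at -1.64.

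The genes whose pattern over the 8 libraries was most like that of each crossover gene were taken from 12140 candidates, so their correlations are the highest of many and are given as a description. They were Csl (Pearson r = 0.993, Spearman rho = 0.976) and Ddx25 (0.990, 0.952) for Msh5, and Cog6 (0.994, 0.952) and Actr10 (0.989, 0.976) for Hfm1. For Msh4 they were Iqcb1 (0.984, 0.976) and Dcdc2a (0.959, 0.952), and for Mlh3 March10 (0.995, 0.976) and Ttll13 (0.991, 1.000). Cap1 (0.994, 0.976) and Fam216a (0.983, 0.905) were most like Rnf212. Cand1 (0.992, 0.976) and Gzf1 (0.990, 0.976) were most like Ccnb1ip1, Zc3h7a (0.991, 0.976) and Pdhb (0.977, 0.857) most like Cntd1, and Atg4d (0.980, 0.976) and Pemt (0.966, 0.905) most like Mus81. No gene of the 8 was among the 2 nearest of another. The points share their libraries and their scaling.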

How the data were processed

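RNA from whole testes of 8 mice was sequenced as paired ends, and the study's methods describe littermate controls. The labels name a column kit and the study's methods Trizol for RNA purification, and the methods give the tamoxifen injections slightly earlier than the labels. The authors deposited FPKM values made with a sequencing company's software, and the aligner, the counter and the use of strand are not given in the sources used here. The submitters' processing notes name GRCm38 and mm10. Multiplied by gene length, 100% of values were whole multiples of 1 fragment's worth (tolerance 0.02), which gave the fragments back. Gene spans were compared with GENCODE vM21 on GRCm38, and 98.3% of the genes found there had the same start and end.

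Here log2(FPKM + 0.1) was tested with limma 3.58.1 in R 4.3.3 (lmFit, eBayes with trend), 4 mice against 4, and adjusted over all 12141 genes. This scale understates changes of low genes. Single values were tested by exact permutation over 70 assignments, two-sided. The procedure was tested on simulated data. Alternatives were other pseudocounts, filters, scalings, weights, a replicate block, voom on the fragments, and each library left out. Centring on pachytene markers was added after seeing the data.

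The crossover genes, the pathway and marker lists and the motifs were chosen with earlier results of these data known. Named are the 8 genes, genes of the 4 pathway lists and the 2 genes most like each of the 8. Up to 3 genes of each marker list are also named, with Ccna1 as a further pachytene marker. So are genes that overlap one of the 8 in the annotation. Of the 12 symbols listed for other pro-crossover genes 9 were found in the table, SHOC1 and SPO16 under older symbols. Promoters are from RefSeq on GRCm38 and matched all 8 genes by symbol. Of the 6 ratios, 1 is not reported here. Figures were drawn with matplotlib 3.10.9.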

Additional observations from a re-analysis of the deposited data

Results flagged for a closer look

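Of 28 groups of 4 values examined (8 gene levels and 6 ratios in each group), 5 held 1 library far from the other 3. The rule would flag about 1 in 20 groups if libraries were alike, and its share over all genes was not computed. Rnf212 was at 2.41 FPKM in fl/fl 1 and at 9.18 to 10.1 FPKM in the other controls. The log2 ratio of Rnf212 to Ccnb1ip1 was accordingly -3.36 in fl/fl 1 and -1.02 to -0.63 in the others. Cntd1 was at 27.6 FPKM in cKO 1 and at 16.0 to 17.6 FPKM in the other cKO libraries. The log2 ratio of Cntd1 to Cdk2 was -0.0809 in fl/fl 1 against -0.497 to -0.491 in the other controls, and 0.0034 in cKO 1 against -0.588 to -0.544 in the other cKO libraries. The 5 values come from 2 libraries and share genes, so they are not independent. Over all tested genes fl/fl 1 was the highest control for 41.9% and the lowest for 30.2%. For cKO 1 these shares within its group were 40.7% and 31.6%. So the 5 values are not shown to be particular to these genes. The cause of the 5 values was not tested.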

How the results depend on the processing

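No gene of the 8 was called under any of the 20 alternatives. Over all genes calls were rare too. They numbered 0 of 12141 with a replicate block, 8 of 25931 over all biotypes and 57 of 12141 with array weights. None of the 6 ratio differences passed the exact permutation test at the other pseudocounts. The ratio difference of Rnf212 to Ccnb1ip1 went from 0.51 to -0.13 without fl/fl 1. The number of the 8 at an unadjusted p below 0.05 ran from 0 to 3, with 3 under array weights (Msh5, Mlh3, Hfm1; smallest adjusted p 0.0729, Msh5) and 3 without fl/fl 4. Over all genes the share at that p was 20.9% and 15.3% in these fits, against 10.9% in the main fit. Of 298 fold changes and differences recomputed, 28 changed sign: 12 log2 fold changes, 10 differences of mean level and 6 ratio differences. The Msh4 log2 fold change without fl/fl 3, which rounds to 0.0, is not counted among the 12. Rescaling to TPM gave Msh4 a log2 fold change of 0.04 and differences of mean level of 0.681 for Msh4 and 0.850 for Cntd1. Array weights gave Rnf212 -0.08. Centring on pachytene markers, chosen after seeing the data, gave Msh4 0.27, Mlh3 0.12, Ccnb1ip1 0.18, Cntd1 0.22 and Mus81 0.14. Leaving out 1 library gave ranges of -0.19 to 0.04 for Msh4, -0.11 to 0.57 for Rnf212, -0.27 to 0.03 for Ccnb1ip1 and -0.27 to 0.05 for Cntd1. With 4 against 3 the exact permutation test cannot go below 0.0571. Same-numbered libraries deviated together with correlations of 0.0757 to 0.406, and 5 of 8 correlated best with their own number, a hint from the data. One pair was below the 0.1 set for reading numbers as pairs, and nothing ties a number to a litter, so the block stayed an alternative. Msh5 and Ccnb1ip1 were lower in cKO in 4 of 4 same-numbered comparisons and the other 6 genes in 3 of 4. A replicate block left 0 genes of the 8 called and 2 at an unadjusted p below 0.05 (Msh5 and Hfm1, limma adjusted p 0.194 and 0.253), where 1777 genes reached that p against 1322 without it.

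With 4 mice a group, only Rnf212 had an interval that reached past a log2 fold change of 1. Whether the count of Cntd1 holds reads of Becn1 is not known. The limma p-values set the difference between the groups against the spread between these mice, moderated over the genes tested. The permutation p-values set it against relabelled libraries.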
